A study of Mus musculus with 9 samples.

Results

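The m6A writers, readers and erasers described here are 9 genes of the 24505 in the count table. They were taken by name as the writers Mettl3, Mettl14 and Wtap, the erasers Alkbh5 and Fto, and the readers Ythdf1, Ythdf2, Ythdf3 and Ythdc1. The related reader Ythdc2 was not among those named. All 9 passed the filter on low counts in every comparison, and their counts ran from 554 to 11294 per library.

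mRNA was sequenced from 9 libraries of germ cells sorted by fluorescence from testes of Uchl1-eGfp mice. The transgene puts EGFP under the promoter of Uchl1, and its fluorescence is strong in spermatogonia and weak in preleptotene (PL) spermatocytes. In all mice retinoic acid (RA) synthesis was blocked with the inhibitor WIN at 100 µg per g of body weight daily from P1, with P10 as the last day in the study's methods and P11 in the label protocol, and spermatogenesis was then started in synchrony on P11 by injecting RA once (10 µl of a solution with 10 µg per µl). Intermediate and type B (In/B) spermatogonia were collected on P17 (3 libraries) and RA-sufficient PL spermatocytes on P19 (3 libraries). RA-deficient PL spermatocytes were also collected on P19 (3 libraries), from mice that went on receiving WIN after P11 so that the RA signal preceding meiosis was withheld. The mice were C57BL/6 crossed to CD-1, and the testes of at least 5 pups were pooled for a preparation. Whether each library came from its own preparation is not given in the sources used here, so p-values measure the spread between libraries, which may be technical.

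N6-methyladenosine (m6A) is a methyl group placed on internal adenosines of mRNA. METTL3 is the catalytic subunit of the nuclear methyltransferase and METTL14 its RNA-binding partner, while WTAP holds the pair at nuclear speckles. ALKBH5 and FTO are oxygenases that remove the methyl group. YTH domain proteins bind the mark: YTHDF1, YTHDF2 and YTHDF3 act in the cytoplasm on translation and decay, and YTHDC1 acts in the nucleus on splicing and export. In the testis, m6A enzymes and readers are known for roles in spermatogonial maintenance, meiosis and the timed translation and clearance of transcripts.

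Total counts per library were 16872425 to 26684393 in In/B, 12612959 to 21833333 in RA-sufficient PL and 25048240 to 27042274 in RA-deficient PL. Genes with a count numbered 16758 to 18002, 17541 to 18434 and 14769 to 15327 in the same order. Values are given as counts scaled to library size (CPM) after scaling with the trimmed mean of M-values (TMM), and 3 counts correspond to between 0.111 and 0.238 CPM before that scaling. The TMM factors were 0.991 to 1.06, 1.038 to 1.077 and 0.913 to 0.933 in the same order of groups. The part of this difference between the libraries in the results below was not tested. Log2 CPM correlated between replicates with r of 0.9546 to 0.9935 in In/B and 0.944 to 0.989 in RA-sufficient PL over 9698 genes. In RA-deficient PL it was 0.975 for replicates 1 and 2, and 0.873 and 0.872 where replicate 3 was paired with them, so that replicate 3 stood apart. The 6 spermatogonial markers, which include the gene of the sorting transgene, Uchl1, summed to 3030, 3170 and 1255 CPM in RA-deficient replicates 1, 2 and 3, against 3376 to 4983 CPM in In/B and 645.8 to 857.1 CPM in RA-sufficient PL. In RA-deficient against RA-sufficient PL 5 of them were higher and 1, Ccnd2, was lower. The 5 general germ cell markers summed to 2548 to 3122 CPM in In/B, 3360 to 4501 CPM in RA-sufficient PL and 6030 to 6063 CPM in RA-deficient PL, where 3 were higher than in RA-sufficient PL and 0 lower. Genes of meiotic entry marked both PL groups, with 8 of 8 higher than in In/B in each. Of all genes, 33.8% were higher than in In/B in RA-sufficient PL and 18.4% in RA-deficient PL. Between the PL groups 0 of the 8 differed at an edgeR adjusted p below 0.05. Without RA-deficient replicate 3, 2 of the 8 were lower in RA-deficient PL and 0 higher, where 41.9% of all genes differed. Markers of Sertoli cells, the somatic cells that nurse germ cells, summed to 69.78 to 354 CPM in In/B, 2790 to 3658 CPM in RA-sufficient PL and 280 to 492 CPM in RA-deficient PL, and none of the 9 with a row was at 0 throughout a group. All 9 were higher in RA-sufficient PL than in In/B, and all 9 were lower in RA-deficient than in RA-sufficient PL. Of all genes, 11% were higher and 12.6% lower in RA-deficient than in RA-sufficient PL. The part of the Sertoli cell, spermatogonial and germ cell signal in the differences below was not tested.

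The 9 genes lie on 8 chromosomes of the mouse genome (mm9, GENCODE release M1), and all are protein coding. The writers were Mettl3 at chr14:52914343-52924803 on the minus strand, Mettl14 at chr3:123067563-123088908 on the minus strand and Wtap at chr17:13159662-13185412 on the minus strand. The erasers were Alkbh5 at chr11:60349883-60372014 on the plus strand and Fto at chr8:93837431-94192338 on the plus strand. The cytoplasmic readers were Ythdf1 at chr2:180639082-180655654 on the minus strand, Ythdf2 at chr4:131740827-131768218 on the minus strand and Ythdf3 at chr3:16083183-16117035 on the plus strand. The nuclear reader was Ythdc1 at chr5:87233246-87265684 on the plus strand. In this annotation, which may not be the one used in counting, 2 members share exonic bases with a gene on the opposite strand. Mettl3 shares 1106 exonic bases with Tox4, which is 27.74% of its exons, and Mettl14 shares 323 with Sec24d, which is 6.31%. The libraries were made with a stranded kit, but whether strand was used in counting is not given in the sources used here, so shared reads cannot be assigned with certainty.

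Promoter windows from 250 bases before to 50 bases after each start were found for 7 of the 9 genes (all but Mettl14 and Ythdf3) in RefSeq sequence of GRCm38.p6. They were searched on both strands for 3 motifs. These were CNCCTCAG, the motif reported for STRA8, the transcription factor that RA induces at meiotic entry, TTCCCGCC, a motif of the E2F cell cycle factors, and AGGTCA, the half-site of nuclear receptors such as the RA receptors. The STRA8 motif was in 7.94% of all 32851 windows, the E2F motif in 2.19% and the half-site in 16.3%. Counted by gene, over 27025 genes with a window, the shares were 9.12%, 2.52% and 18.1%. In all, 2 members held the STRA8 motif and both matches were past the start, in Alkbh5 at bases 38 to 45 on the reverse strand and in Ythdf1 at bases 36 to 43 on the forward strand. Wtap held the half-site on the reverse strand, 11 to 6 bases before its first start. No member held the E2F motif in its window. The RA target Stra8 itself was at 54.4, 164.6 and 150 CPM in In/B, at 444.1, 126.2 and 120.6 CPM in RA-sufficient PL and at 377, 365.4 and 81.54 CPM in RA-deficient PL. Its groups overlapped, and the PL groups differed by 0.22 on the log2 scale (95% interval -1.41 to 1.85, edgeR adjusted p = 0.84). Of the 6 RA target markers, Stra8 included, 5 were tested between the PL groups. There 2 were lower in RA-deficient PL and 0 higher, where 12.6% of all genes were lower and 11% higher. The 2 were Cyp26a1 (log2 -4.48, edgeR adjusted p = 0.0257) and Stra6 (-3.66, edgeR adjusted p = 0.00079). Cyp26a1 was at 0, 0.476 and 1.18 CPM in RA-deficient PL, near the lowest level that can be counted, so the size of its fold is uncertain. The 2 stretches that hold the STRA8 motif are shown to place the matches, in transcript orientation and with the motif in capitals. The Alkbh5 stretch is chr11:60537703-60537732 (plus strand) and the Ythdf1 stretch chr2:180920887-180920916 (minus strand).
Alkbh5: gatttgtgcgctggaagCTGAGGCGtctgc
Ythdf1: cattggagtcggcgcCCCCTCAGcctgtcc

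The 250 bases before the start are shown for Wtap and Mettl3, the pair of writers that were lower in RA-sufficient PL, and for Alkbh5, which was higher in both PL groups. They are chr17:12992544-12992793 (minus strand), chr14:52305125-52305374 (minus strand) and chr11:60537433-60537682 (plus strand) of GRCm38.p6, written toward the start, with the half-site of Wtap in capitals. The Mettl3 and Alkbh5 stretches hold none of the 3 motifs.
Wtap: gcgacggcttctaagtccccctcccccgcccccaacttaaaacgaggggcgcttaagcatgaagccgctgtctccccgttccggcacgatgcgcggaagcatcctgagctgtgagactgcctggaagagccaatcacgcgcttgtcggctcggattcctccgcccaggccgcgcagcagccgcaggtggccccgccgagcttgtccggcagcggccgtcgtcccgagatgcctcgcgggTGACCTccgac
Mettl3: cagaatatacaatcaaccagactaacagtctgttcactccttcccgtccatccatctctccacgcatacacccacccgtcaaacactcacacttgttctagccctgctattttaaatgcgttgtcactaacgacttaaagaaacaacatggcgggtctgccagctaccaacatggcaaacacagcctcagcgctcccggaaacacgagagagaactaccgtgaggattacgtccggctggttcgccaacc
Alkbh5: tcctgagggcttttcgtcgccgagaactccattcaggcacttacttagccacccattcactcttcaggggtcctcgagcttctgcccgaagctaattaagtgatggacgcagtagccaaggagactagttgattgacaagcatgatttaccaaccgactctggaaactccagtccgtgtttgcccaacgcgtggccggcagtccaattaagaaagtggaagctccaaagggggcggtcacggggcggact

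Going from In/B to RA-sufficient PL, the level of the demethylase Alkbh5 rose, and those of Mettl3, Wtap and Fto fell. In RA-deficient PL, Alkbh5, Mettl14, Ythdc1, Ythdf3 and Ythdf2 rose against In/B and no member fell. Between the PL groups only Mettl14 passed the test, being higher in RA-deficient PL. These differences were modest, and no member changed by more than 2-fold in any comparison as fitted here.

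A gene was called at an adjusted p below 0.05 (edgeR's quasi-likelihood test, Benjamini-Hochberg adjustment over all genes tested). In RA-sufficient PL against In/B, 4 of the 9 members were called, 1 higher and 3 lower, where 65% of all genes were called, 33.8% higher and 31.2% lower. In RA-deficient PL against In/B, 5 of the 9 were called, all higher, where 36.7% of all genes were called, 18.4% higher and 18.3% lower. In RA-deficient against RA-sufficient PL, 1 of the 9 was called, where 23.6% of all genes were called, 11% higher and 12.6% lower. With a log2 fold change beyond 1 or -1 also required, 0 members were called in each comparison, against 45.4%, 23.2% and 15.5% of all genes in the same order. At an unadjusted p below 0.05, 4, 5 and 4 members passed without that fold, where 68.4%, 45.8% and 37.5% of all genes did. The In/B libraries are shared by the first 2 comparisons, and each PL group also enters the comparison of the PL groups, so the 3 comparisons are not independent.

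The libraries of the groups did not overlap for 4 members in RA-sufficient PL against In/B, as they did not for 71.5% of all genes. They did not overlap for 5 members in RA-deficient PL against In/B, beside 54.6% of all genes, nor for 5 members between the PL groups, beside 47.4%. For the members, the median size of the log2 fold change was 0.24, 0.48 and 0.31 in the 3 comparisons, below the 0.96, 0.73 and 0.62 of all genes tested. The median signed log2 fold change of the members was 0.13, 0.48 and 0.31, against 0.04, 0.00 and -0.09 over all genes. Scaling by library size alone moved the median of all genes to -0.31 in RA-deficient PL against In/B and to -0.27 between the PL groups, and the differences described here are relative to the TMM-scaled median. The printed CPM were scaled over all 9 libraries, while each fold change was fitted with scaling over the 6 libraries compared. For the members the fitted log2 fold change was therefore 0.05 to 0.06 above the log2 ratio of the mean CPM in RA-sufficient PL against In/B, 0.17 above it in RA-deficient PL against In/B, and differed from it by -0.01 to 0.00 between the PL groups. With all 9 libraries in a single fit, the members called in RA-deficient PL against In/B were Alkbh5, Mettl14, Ythdc1 and Ythdf3. With scaling by library size alone, 2 were higher there (Alkbh5 and Mettl14) and 1 lower (Wtap). In bulk libraries, fewer cells that express a gene and less RNA per cell cannot be told apart.

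**Figure D1:**
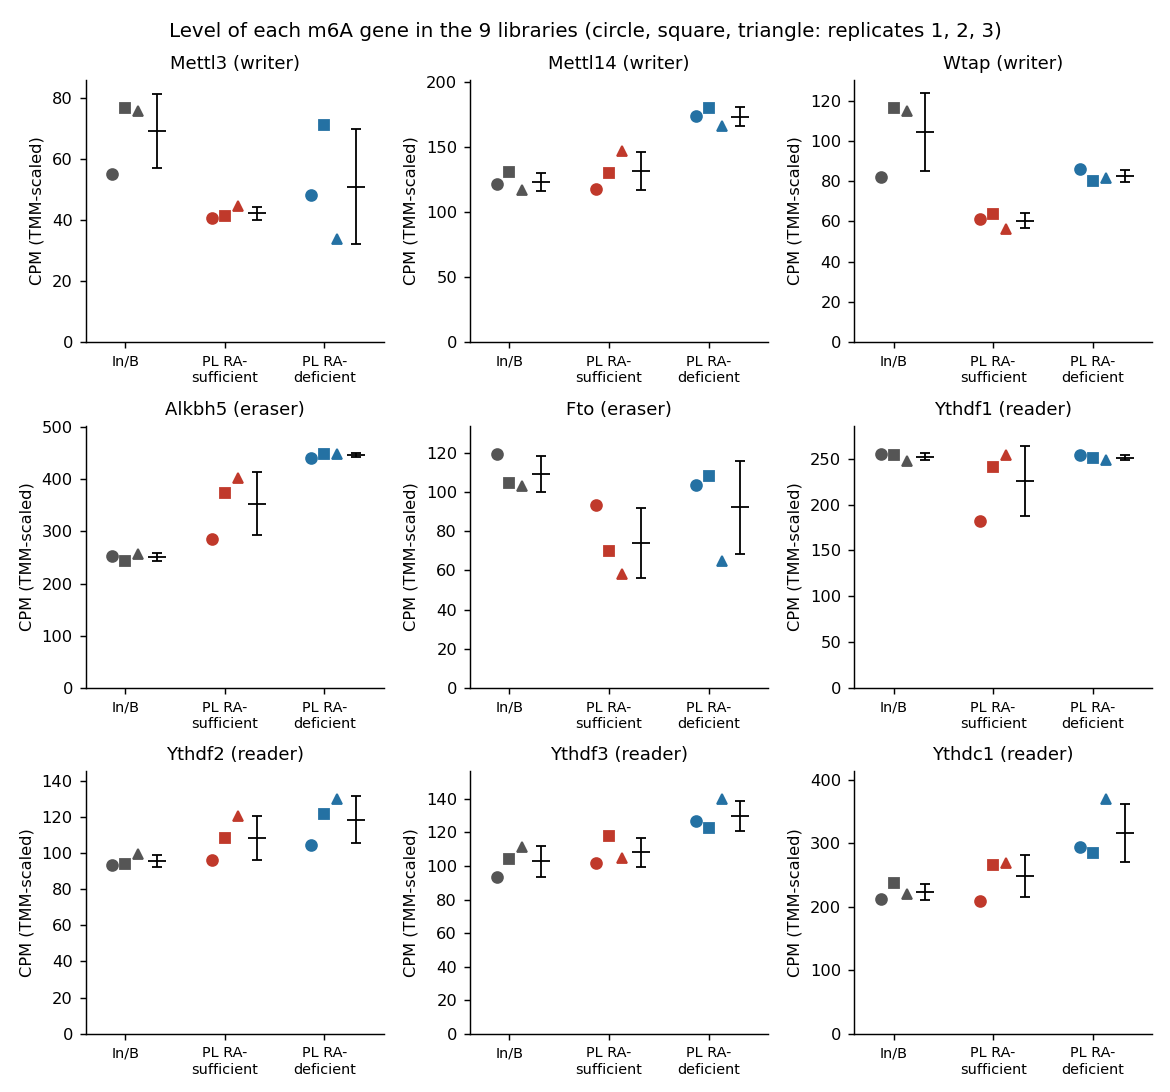
Level of the 9 genes in CPM after TMM scaling (vertical axes from 0) in each library of In/B, PL RA-sufficient and PL RA-deficient cells, with the mean and SD (n = 3) beside the points. The 3 RA-deficient libraries lie above all others for Mettl14, Alkbh5, Ythdf3 and Ythdc1, while those of Mettl3 and Fto are spread over the range of the other groups.

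Among the writers, the Mettl3 and Wtap levels fell on entry into meiosis with RA. Mettl3 was at 55.13, 76.67 and 75.63 CPM in In/B, at 40.77, 41.17 and 44.42 CPM in RA-sufficient PL and at 48.15, 70.92 and 33.71 CPM in RA-deficient PL. The RA-sufficient libraries were all below the In/B libraries, whereas the RA-deficient libraries spanned both groups, with replicate 3 the lowest of the 9 and replicate 2 within the In/B range. Mettl3 fell by 0.66 on the log2 scale in RA-sufficient PL (SE 0.16, adjusted p = 0.0059), and its difference was -0.27 in RA-deficient PL (SE 0.28, adjusted p = 0.5), with -0.61 without RA-deficient replicate 2 and -0.04 without replicate 3. RA-deficient differed from RA-sufficient PL by 0.27 with a 95% interval from -0.37 to 0.91, which holds changes of either sign. Without RA-deficient replicate 2 it was -0.03, and without replicate 3 it was 0.51. Tox4, which overlaps Mettl3 on the opposite strand, moved the other way, with a log2 fold change of 1.15 in RA-sufficient PL (adjusted p = 0.000478) and 1.09 in RA-deficient PL (adjusted p = 0.00309) against In/B. The part of Tox4 reads in the Mettl3 counts was not tested.

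Wtap was at 82.24, 116.4 and 114.8 CPM in In/B, at 60.94, 63.66 and 56.24 CPM in RA-sufficient PL and at 85.97, 80.15 and 81.41 CPM in RA-deficient PL. The RA-sufficient libraries were the lowest 3 of all 9, and the RA-deficient libraries lay above them and overlapped In/B through In/B replicate 1. The Wtap level fell by 0.74 in RA-sufficient PL (SE 0.16, adjusted p = 0.0031), a call that held in all 13 alternative fits. In RA-deficient PL against In/B its log2 difference was -0.17 (adjusted p = 0.453). With scaling by library size alone it was -0.49 and called (adjusted p = 0.0385, range over 13 alternative fits 0.0385 to 0.782). Wtap was 0.45 higher in RA-deficient than in RA-sufficient PL, just outside the threshold (SE 0.14, adjusted p = 0.0536, 95% interval 0.13 to 0.77). Without RA-deficient replicate 3 the same difference was 0.47 and called (adjusted p = 0.0278), in a fit that called 41.9% of all genes, and over the 13 alternatives the adjusted p ran from 0.0207 to 0.197.

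Mettl14 was highest in RA-deficient PL. It was at 121.6, 131.2 and 117.2 CPM in In/B, at 117.8, 130 and 147.3 CPM in RA-sufficient PL and at 174.3, 180.4 and 166.5 CPM in RA-deficient PL. In/B and RA-sufficient PL overlapped, and every RA-deficient library was above every other. The log2 difference in RA-sufficient PL was 0.15 (SE 0.12, adjusted p = 0.294). In RA-deficient PL Mettl14 rose by 0.66 (SE 0.11, adjusted p = 0.00265), and the call held in all 13 alternatives. Against RA-sufficient PL it was 0.40 higher in RA-deficient PL (SE 0.11, adjusted p = 0.0407, 95% interval 0.14 to 0.66). That call was fragile. It held without RA-deficient replicate 3 (adjusted p = 0.0302), where 41.9% of all genes were called, and was lost without RA-sufficient replicate 1, 2 or 3 (adjusted p = 0.0949, 0.148 and 0.079) and without RA-deficient replicate 1 or 2 (adjusted p = 0.128 and 0.146). Sec24d, which overlaps the Mettl14 exons in part, had log2 differences of -0.14, -0.23 and -0.21 in the 3 comparisons and was not called.

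In RA-sufficient PL the erasers moved in opposite directions. Alkbh5 was at 252.7, 242.4 and 256.2 CPM in In/B, at 285.2, 373.3 and 401.6 CPM in RA-sufficient PL and at 441.5, 447.5 and 448.9 CPM in RA-deficient PL. The 3 groups did not overlap and followed each other in that order. Alkbh5 rose by 0.55 in RA-sufficient PL (SE 0.14, adjusted p = 0.0074) and by 1.00 in RA-deficient PL (SE 0.10, adjusted p = 0.000242), the most of any member in any comparison. The log2 ratio of the mean CPM for the second difference was 0.83, and a single fit of all 9 libraries gave 0.87. Both calls held in all 13 alternatives, over which the second log2 fold change ran from 0.68 to 1.02. The difference between the PL groups was 0.34 (SE 0.12, 95% interval 0.05 to 0.62) and did not pass after adjustment (adjusted p = 0.0867).

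Fto was at 119.5, 104.5 and 102.9 CPM in In/B, at 93.25, 70.02 and 58.09 CPM in RA-sufficient PL and at 103.4, 108.1 and 64.93 CPM in RA-deficient PL. All RA-sufficient libraries were below In/B, and RA-deficient replicate 3 was at the level of the RA-sufficient libraries while replicates 1 and 2 were at that of In/B. Fto fell by 0.51 in RA-sufficient PL (SE 0.18, adjusted p = 0.0364). The call rested on several libraries at once. It was lost in a single fit of all 9 libraries (adjusted p = 0.0606), and also without In/B replicate 1, 2 or 3 (adjusted p = 0.0871, 0.0564 and 0.0597) or RA-sufficient replicate 2 or 3 (adjusted p = 0.105 and 0.115), and was kept without RA-sufficient replicate 1 (adjusted p = 0.0032). In RA-deficient PL the log2 difference from In/B was -0.08 (95% interval -0.56 to 0.41), where the log2 ratio of the mean CPM was -0.24 and a single fit of all 9 libraries gave -0.21. It was 0.13 without replicate 3 and 0.00 without In/B replicate 1. Its difference between the PL groups was 0.31 (95% interval -0.32 to 0.94), with 0.14 without RA-sufficient replicate 3, 0.54 without RA-sufficient replicate 1 and 0.53 without RA-deficient replicate 3.

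Among the cytoplasmic readers, Ythdf1 was not called in any comparison. It was at 255.6, 253.7 and 247.9 CPM in In/B, at 181.9, 241.2 and 253.7 CPM in RA-sufficient PL and at 254.2, 251.2 and 248.6 CPM in RA-deficient PL. In/B and RA-deficient PL spanned the same narrow range, and RA-sufficient replicate 1 alone was low. Its log2 differences were -0.11 (95% interval -0.42 to 0.21), 0.16 (-0.06 to 0.39) and 0.16 (-0.13 to 0.45) in the order of the comparisons above. For the second, the log2 ratio of the mean CPM was -0.01 and a single fit of all 9 libraries gave 0.03 (adjusted p = 0.871), so the estimate of 0.16 rests on the scaling of the 6 libraries. The first difference was 0.02 without RA-sufficient replicate 1. The sign of the other two flipped with scaling by library size alone (-0.16 and -0.03).

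Ythdf2, known for directing methylated mRNA to decay, was at 93.43, 94.06 and 99.2 CPM in In/B, at 96.34, 108.3 and 120.4 CPM in RA-sufficient PL and at 104.4, 121.3 and 129.6 CPM in RA-deficient PL. RA-sufficient PL overlapped both other groups, and RA-deficient PL was entirely above In/B. The difference in RA-sufficient PL was 0.24 (SE 0.12, 95% interval -0.04 to 0.52) and was called without RA-sufficient replicate 1 (adjusted p = 0.0374, range over 13 alternatives 0.0374 to 0.345). In RA-deficient PL Ythdf2 rose by 0.48 (SE 0.13, adjusted p = 0.0256). That call was lost without In/B replicate 1, 2 or 3 (adjusted p = 0.0604, 0.121 and 0.0754) or RA-deficient replicate 2 (adjusted p = 0.0808), with scaling by library size alone (log2 0.16, adjusted p = 0.385), and in a single fit of all 9 libraries (log2 0.35, adjusted p = 0.057). The log2 ratio of the mean CPM was 0.31. The PL groups differed by 0.13 (95% interval -0.19 to 0.44), and by -0.06 with scaling by library size alone.

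Ythdf3, a cytoplasmic reader known to act with the other two, was at 93.2, 103.9 and 111.5 CPM in In/B, at 102, 118 and 104.7 CPM in RA-sufficient PL and at 127, 122.4 and 139.7 CPM in RA-deficient PL. In/B and RA-sufficient PL overlapped, and the RA-deficient libraries were the highest 3 of the 9. The log2 difference in RA-sufficient PL was 0.13 (95% interval -0.15 to 0.41). In RA-deficient PL Ythdf3 rose by 0.50 (SE 0.13, adjusted p = 0.0179), where the log2 ratio of the mean CPM was 0.33 and a single fit of all 9 libraries gave 0.37 (adjusted p = 0.0335). The call was lost without In/B replicate 2 (adjusted p = 0.0884) and with scaling by library size alone (log2 0.19, adjusted p = 0.285). The PL groups differed by 0.26 (95% interval -0.02 to 0.54).

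The nuclear reader Ythdc1 was at 212.3, 237.1 and 219.8 CPM in In/B, at 209.7, 265.1 and 269.2 CPM in RA-sufficient PL and at 294.1, 284.8 and 368.9 CPM in RA-deficient PL. RA-deficient PL was above both other groups, which overlapped, and its replicate 3 was the highest. The difference in RA-sufficient PL was 0.21 (SE 0.12, 95% interval -0.07 to 0.49) and was called without RA-sufficient replicate 1 (log2 0.31, adjusted p = 0.0142, range over 13 alternatives 0.0142 to 0.39). In RA-deficient PL Ythdc1 rose by 0.67 (SE 0.13, adjusted p = 0.00476). With scaling by library size alone it was 0.35 (adjusted p = 0.0507). Between the PL groups the difference was 0.35 (SE 0.14, adjusted p = 0.109).

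**Figure D2:**
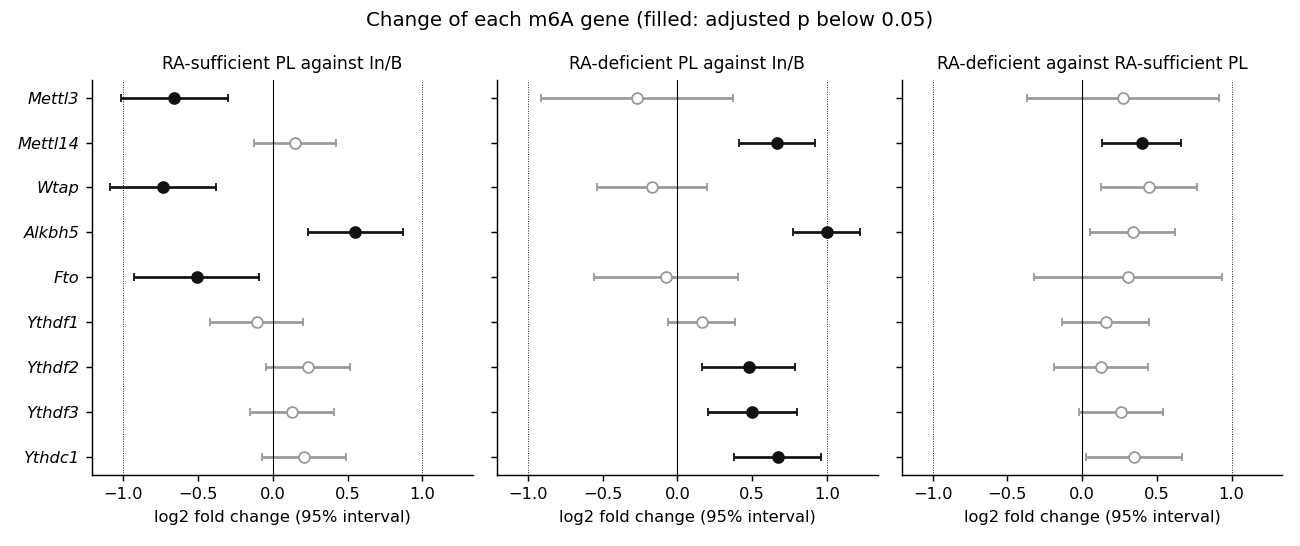
Log2 fold change of the 9 genes with 95% intervals (horizontal axes) in the 3 comparisons, filled where the adjusted p was below 0.05, with dotted lines at 2-fold either way. Mettl3, Wtap and Fto lie below 0 in RA-sufficient PL against In/B, 5 filled points lie above 0 in RA-deficient PL against In/B, and all 9 estimates are positive between the PL groups while only that of Mettl14 is filled.

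All 9 estimates were positive between the PL groups, with 4 of them below an unadjusted p of 0.05, as were 37.5% of all genes. They come from the same 6 libraries and the same scaling, so the 9 signs are not independent. Ythdf1 and Ythdf2 turned negative with scaling by library size alone and Mettl3 without RA-deficient replicate 2. Of the marker lists, 9 of 9 Sertoli cell genes were lower in RA-deficient than in RA-sufficient PL, whereas 5 of 6 spermatogonial genes were higher and 1 lower. Of 5 germ cell genes 3 were higher and 0 lower, and of 6 genes of undifferentiated spermatogonia 2 were higher and 0 lower. Of 8 genes of meiotic entry 0 were called. In this comparison 11% of all genes were higher and 12.6% lower.

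Levels of different genes were compared per kb of exon (CPM divided by the length of all annotated exons of the gene). The exons were those of GENCODE release M1, which may not be the annotation used in counting. On this scale Ythdf1 was highest in every group, at 76.11 ± 1.2 CPM per kb in In/B, 68.03 ± 11.6 in RA-sufficient PL and 75.79 ± 0.85 in RA-deficient PL (SD, n = 3). Alkbh5 was second in every group, at 41.83 ± 1.2, 59.02 ± 10.1 and 74.49 ± 0.66 CPM per kb. The pair did not overlap in In/B and overlapped in both PL groups.

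Mettl14 came next in all 3 groups, at 24.09 ± 1.4 CPM per kb in In/B, 25.73 ± 2.9 in RA-sufficient PL and 33.94 ± 1.4 in RA-deficient PL. Then came Ythdc1, Ythdf2, Ythdf3, Wtap and Mettl3 in the same order in every group, and Fto was lowest, with 8.37 ± 0.70, 5.67 ± 1.4 and 7.07 ± 1.8 CPM per kb. From Mettl14 down to Ythdf3 each gene overlapped the next in each group. Wtap and Mettl3 overlapped too, at 18.49 ± 3.4 and 17.34 ± 3.0 CPM per kb in In/B, 10.67 ± 0.66 and 10.56 ± 0.50 in RA-sufficient PL, and 14.6 ± 0.54 and 12.77 ± 4.7 in RA-deficient PL. Ythdf3 and Wtap overlapped in In/B and not in either PL group. The order depends on the length used. With the longest coding transcript in its place, an alternative chosen after seeing the data, Ythdc1 was at 68.24, 75.86 and 96.64 CPM per kb and came second in In/B and first in both PL groups, and Fto rose to between the sixth and the eighth place.

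Because both genes of a ratio are counted in the same library, their proportion does not depend on the scaling. The Mettl14 to Mettl3 ratio per kb was 1.72, 1.33 and 1.21 in In/B, 2.25, 2.46 and 2.58 in RA-sufficient PL and 2.82, 1.98 and 3.85 in RA-deficient PL. It was higher in every PL library than in any In/B library. The mean log2 ratio was 0.49 ± 0.26, 1.28 ± 0.10 and 1.48 ± 0.48 (SD, n = 3), and the differences from In/B were 0.79 and 0.99, more than the SD between replicates (exact two-sided permutation test, p = 0.1 for each, adjusted p = 0.2 over 18 tests). With 3 libraries against 3, p = 0.1 is the smallest this exact test can give. The PL groups overlapped (difference 0.20, exact permutation p = 0.6).

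The Wtap to Mettl3 ratio per kb was 1.05, 1.07 and 1.07 in In/B, 1.05, 1.09 and 0.893 in RA-sufficient PL and 1.26, 0.797 and 1.7 in RA-deficient PL. The RA-deficient libraries were the most spread, with an SD of 0.55 on the log2 scale against 0.01 in In/B and 0.15 in RA-sufficient PL. All group ranges overlapped, and the log2 differences from In/B of -0.08 and 0.17 were below the SD between replicates, which was 0.11 and 0.39 in those comparisons (exact permutation p = 0.8 and 0.7), which does not show that the ratio was the same. On counts alone the ratio was 1.13 to 2.42 in RA-deficient PL and 1.49 to 1.52 in In/B.

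The Alkbh5 to Fto ratio per kb was 4.6, 5.04 and 5.42 in In/B, 6.65, 11.6 and 15 in RA-sufficient PL and 9.29, 9.01 and 15 in RA-deficient PL. Every PL library was above every In/B library. The mean log2 ratio was 2.33 ± 0.12, 3.39 ± 0.60 and 3.43 ± 0.41 (SD, n = 3), so that it was 1.07 and 1.11 higher in RA-sufficient and RA-deficient PL (exact permutation p = 0.1, adjusted p = 0.2, for each), and 0.04 apart between the PL groups (exact permutation p = 0.9). The ratio per kb holds the choice of lengths, and on counts alone it was 2.11 to 2.49 in In/B and 3.06 to 6.91 in both PL groups together. With the longest coding transcript as length, mean levels of Alkbh5 were 43.7, 61.67 and 77.83 CPM per kb in In/B, RA-sufficient and RA-deficient PL. Those of Fto were then 30.64, 20.74 and 25.9 CPM per kb, so the size of the ratio rests on the length chosen.

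Within the sum of the cytoplasmic readers per kb, Ythdf1 made up 67%, 65.6% and 63.7% in In/B, 57.7%, 61.3% and 62.5% in RA-sufficient PL and 62.2%, 60.5% and 57.9% in RA-deficient PL. Its share was lower in every PL library than in any In/B library, with differences of -4.95 percentage points in RA-sufficient and -5.27 in RA-deficient PL, and RA-sufficient replicate 1 held the lowest value. The share of Ythdf2 was 17.8%, 17.6% and 18.5% in In/B, 22.2%, 20% and 21.5% in RA-sufficient PL and 18.5%, 21.2% and 21.9% in RA-deficient PL. It was 3.25 and 2.56 percentage points higher in the PL groups, although RA-deficient replicate 1 barely exceeded the highest In/B library. These 4 differences had exact permutation p = 0.1 and adjusted p = 0.2. On counts, without division by length, the Ythdf2 share was 21.5% in RA-deficient replicate 1 and 21.6% in In/B replicate 3, so that these groups overlapped (exact permutation p = 0.2). The share of Ythdf3 was 16.58 ± 1.3%, 18.27 ± 2.1% and 19.29 ± 0.95% (SD, n = 3), and only RA-deficient PL and In/B did not overlap (exact permutation p = 0.1). Between the PL groups all 3 shares overlapped.

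**Figure D3:**
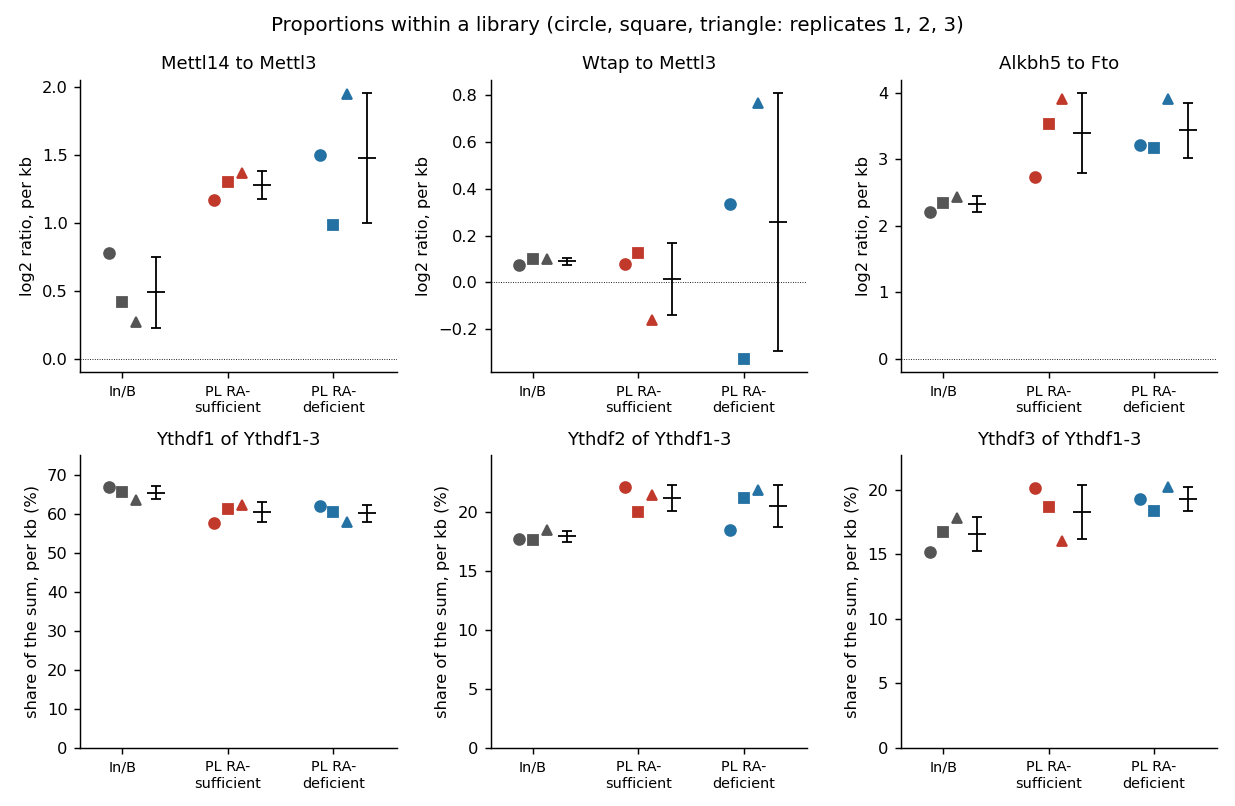
Proportions between members within each library, with the mean and SD (n = 3) beside the points: log2 ratios per kb in the upper row (dotted line at equal levels) and shares of the Ythdf1-3 sum per kb, in percent, in the lower row. The PL libraries lie above In/B for Mettl14 to Mettl3 and for Alkbh5 to Fto and below it for the Ythdf1 share, and the Wtap to Mettl3 points overlap, with RA-deficient replicates the most spread.

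The other genes of the m6A pathway were described by lists, by count and by the genes with the lowest p. Beside these counts, 65%, 36.7% and 23.6% of all genes were called in the 3 comparisons, in the order used above. The other writer complex subunits are the scaffold VIRMA, ZC3H13, the ubiquitin ligase HAKAI (gene Cbll1) and the RNA-binding adaptors RBM15 and RBM15B. In RA-sufficient PL against In/B, 1 of 5 was higher (Virma, log2 0.56, adjusted p = 0.0231) and 1 lower (Cbll1, -0.80, adjusted p = 0.000757). In RA-deficient PL against In/B, 2 of 5 were higher, Zc3h13 by 0.96 (adjusted p = 0.00112) and Virma by 0.57 (adjusted p = 0.0406). Cbll1 was at 113.4, 111.7 and 115 CPM in In/B, at 56.74, 71.24 and 60.17 CPM in RA-sufficient PL and at 103.6, 105 and 131.6 CPM in RA-deficient PL. It was lowest in RA-sufficient PL, as Wtap was, and it was 0.85 higher in RA-deficient PL (adjusted p = 0.0102), one of 2 subunits called between the PL groups beside Zc3h13 (0.58, adjusted p = 0.0333). The median log2 fold change of the list was 0.31, 0.51 and 0.08 in the 3 comparisons.

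Among the other adenosine methyltransferases of RNA and an activating partner, the genes that passed the test were all lower than in In/B. They were 3 of 5 in RA-sufficient PL, where 65% of all genes were called, and 1 of 5 in RA-deficient PL, where 36.7% were. This list holds Mettl16, which methylates U6 and Mat2a RNA, Mettl5 and Zcchc4, which methylate ribosomal RNA, Trmt112, the activating partner of several methyltransferases, and Pcif1, which methylates adenosine next to the cap. In RA-sufficient PL 3 of 5 were lower, namely Trmt112 (log2 -1.21, adjusted p = 0.000552), Pcif1 (-0.84, adjusted p = 0.000964) and Mettl16 (-0.63, adjusted p = 0.0122). In RA-deficient PL 1 of 5 was lower, Trmt112 (-1.16, adjusted p = 0.00642), and 2 were without RA-deficient replicate 3, where 44.6% of all genes were called. In the comparison of the PL groups 0 of 5 were called by edgeR, and 0 had an unadjusted p below 0.05. The medians were -0.63, -0.31 and 0.21.

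Other proteins that read or respond to m6A went in both directions. Against In/B, 2 of the 9 were higher and 4 lower with RA present, and 2 were higher and 2 lower in RA-deficient PL. In RA-deficient against RA-sufficient PL, 3 were higher and 1 lower. Of all genes, 65%, 36.7% and 23.6% were called in these 3 comparisons. Fmr1, a translational repressor, was at 215.3, 317.1 and 317.6 CPM in In/B, at 520.2, 885.5 and 816.9 CPM in RA-sufficient PL and at 790, 816.3 and 1144 CPM in RA-deficient PL. It rose in both PL groups against In/B, by 1.44 (adjusted p = 0.000546) and 1.86 (adjusted p = 0.000351). Igf2bp1, which stabilizes target mRNA, fell in both, by 1.63 (adjusted p = 0.000134) and 0.75 (adjusted p = 0.00659), and was 0.77 higher in RA-deficient than in RA-sufficient PL (adjusted p = 0.0453). Its relative Igf2bp2 was 2.24 higher in RA-deficient than in RA-sufficient PL (adjusted p = 0.00704). Hnrnpa2b1, a nuclear RNA-binding protein, fell by 0.65 in RA-sufficient PL (adjusted p = 0.00077). Prrc2a rose by 1.22 in RA-deficient PL against In/B (adjusted p = 0.00014) and was 0.86 higher than in RA-sufficient PL (adjusted p = 0.0113). The medians of the list were -0.43, 0.30 and 0.31.

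The CCR4-NOT complex shortens poly(A) tails and is recruited by YTHDF2. Of its 10 genes, 2 were higher and 3 lower in RA-sufficient PL against In/B, where 65% of all genes were called. In RA-deficient PL against In/B 3 of the 10 were higher and 0 lower, where 36.7% of all genes were called. Between the PL groups 4 were higher and 0 lower in RA-deficient PL, and 5 were higher and 1 lower without RA-deficient replicate 3, where the share of all genes called rose from 23.6% to 41.9%. The scaffold Cnot1 was at 679.2, 847.3 and 811 CPM in In/B, at 716.5, 735.9 and 663.2 CPM in RA-sufficient PL and at 1079, 1124 and 1232 CPM in RA-deficient PL, so that the RA-deficient libraries were above all others. It was 0.72 higher than in In/B (adjusted p = 0.00151) and 0.69 higher than in RA-sufficient PL (adjusted p = 0.00546). Cnot3 was 0.97 higher in RA-deficient PL than in In/B (adjusted p = 0.000496) and 0.92 higher than in RA-sufficient PL (adjusted p = 0.0118). Cnot10 fell by 0.80 in RA-sufficient PL against In/B (adjusted p = 0.000204) and was 0.75 higher in RA-deficient than in RA-sufficient PL (adjusted p = 0.0047). Cnot2 fell by 0.48 in RA-sufficient PL against In/B (adjusted p = 0.00629). The catalytic subunit Cnot6l rose in both PL groups against In/B, by 0.84 (adjusted p = 0.00209) and 1.27 (adjusted p = 0.00105). The list medians were -0.11, 0.19 and 0.38.

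Enzymes of the S-adenosylmethionine cycle supply the methyl donor and clear its product. Of the 5 tested against In/B, 2 were higher and 2 lower in RA-sufficient PL, and 3 were higher and 2 lower in RA-deficient PL, while Mat1a was left out by the filter. Of all genes, 65% and 36.7% were called in these comparisons. The synthetase gene Mat2a was at 324.2, 413.7 and 409.9 CPM in In/B, at 605.9, 728.1 and 738 CPM in RA-sufficient PL and at 489.7, 557.5 and 634.5 CPM in RA-deficient PL. It rose in both PL groups, by 0.91 (adjusted p = 0.000408) and 0.72 (adjusted p = 0.00492). Mat2b, the regulatory subunit, fell in both, by 1.29 (adjusted p = 8.08e-05) and 1.01 (adjusted p = 0.0142). Ahcyl2 rose by 0.52 (adjusted p = 0.00532) and 0.66 (adjusted p = 0.0287). Between the PL groups 1 of 6 was called, the liver-type synthetase gene Mat1a, with 6 to 19 counts in the RA-sufficient libraries and 0 in all RA-deficient ones, so that no fold is given. The list medians were 0.26, 0.37 and -0.05, and the last is the same with Mat1a set at 3 counts per RA-deficient library.

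**Figure D4:**
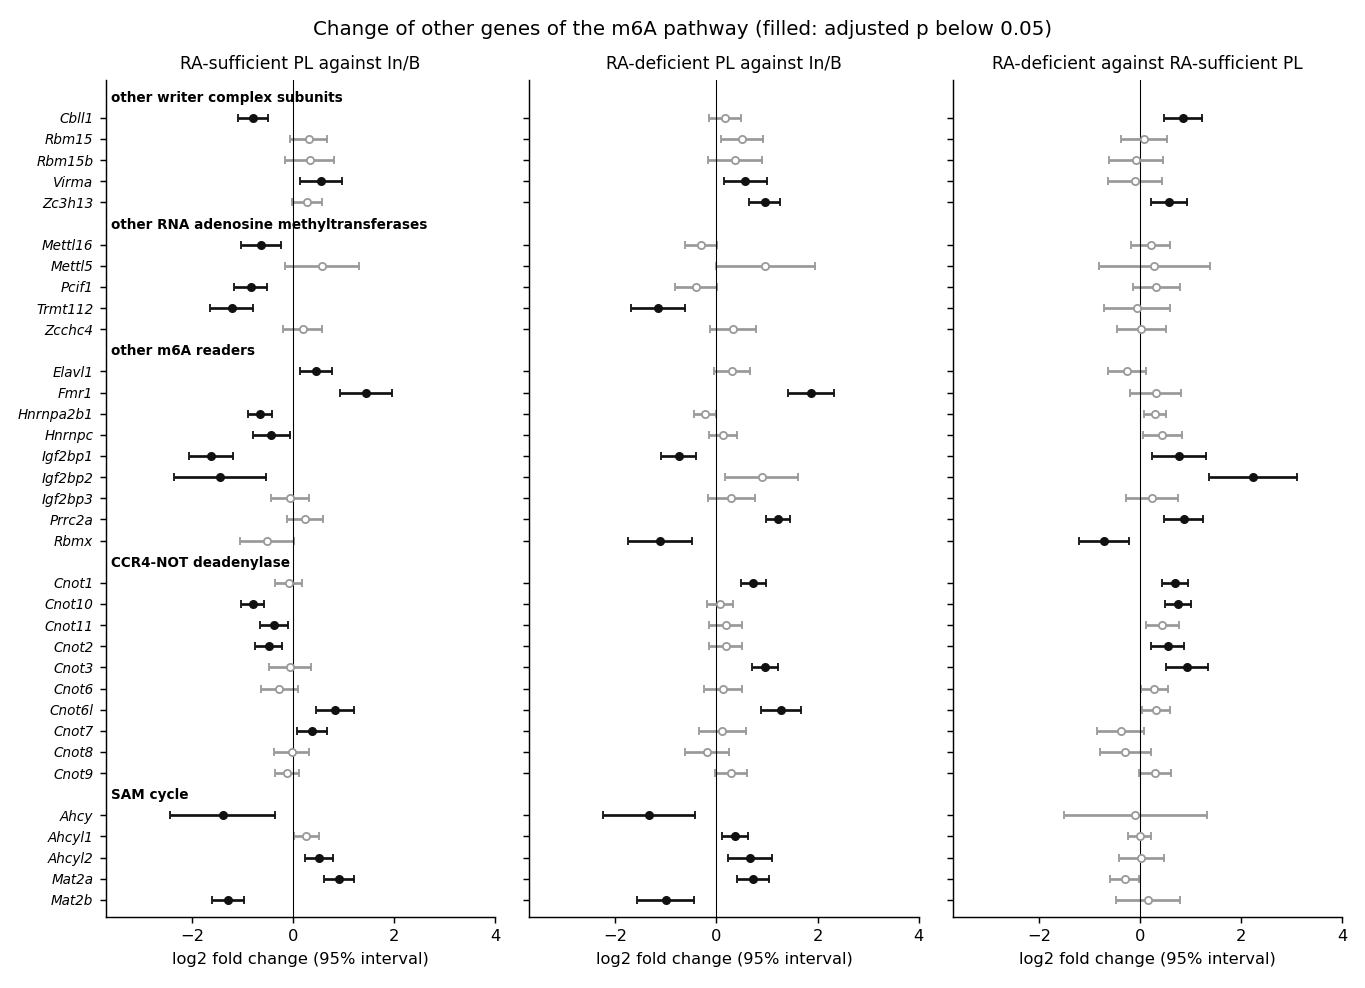
Log2 fold change with 95% intervals (horizontal axes) of the genes of the 5 other lists, 1 gene a row and 1 comparison a panel, filled where the adjusted p was below 0.05 (Mat1a not drawn). Filled points stand on both sides of 0 in RA-sufficient PL against In/B, and those of the CCR4-NOT list stand above 0 in both comparisons of RA-deficient PL.

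For the members other than Ythdf1, the 2 genes most like each in log2 CPM over the 9 libraries were found among the 9698 genes that averaged 10 CPM or more. These correlations describe the libraries, which fall into 3 groups and share their scaling, and have no test. Ythdc1 was closest to Casp8ap2 (r = 0.988) and to Zc3h13 (r = 0.986), the writer complex subunit described above. Alkbh5 was closest to Rab3gap1 (r = 0.99) and Kdm2a (r = 0.988). Mettl14 was closest to Blcap (r = 0.979) and Caprin2 (r = 0.978). These 3 members all had their highest levels in RA-deficient PL, as Ythdf2 and Ythdf3 did by their means.

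Wtap was closest to Nr3c1, the glucocorticoid receptor gene (r = 0.986), and Bmi1 (r = 0.984), and Mettl3 to Leng1 (r = 0.964) and Vps4b (r = 0.962). Fto was closest to 9030624J02Rik (r = 0.989) and Cnnm4 (r = 0.973). Ythdf2 was closest to Gm595 (r = 0.969) and Tfip11 (r = 0.961), and Ythdf3 to Rock2 (r = 0.976) and Myh10 (r = 0.965). The median r of all genes with a member ran from -0.184 for Alkbh5 to 0.224 for Wtap.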

How the data were processed

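mRNA was measured in 9 libraries of sorted mouse germ cells, 3 per group, grouped and numbered by their labels. The values the authors deposited are raw read counts per gene, made by trimming with cutadapt 1.9, alignment to mm9 with STAR 2.5.2b and counting with featureCounts. The annotation and strand setting used in counting are not given in the sources used here.

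Counts were tested pairwise with edgeR 4.0.16 in R 4.3.3 (TMM scaling, filterByExpr, quasi-likelihood test, Benjamini-Hochberg adjustment), on 15001, 14877 and 15352 genes in RA-sufficient PL against In/B, RA-deficient PL against In/B and RA-deficient against RA-sufficient PL. The procedure was run on simulated data with planted changes larger than those of any member, which does not test calls of the members' size. Printed CPM were scaled over all 9 libraries and fold changes over the 6 compared. Depth was 12612959 to 27042274 counts, and n counts libraries. Ratios were compared with exact permutation tests (scipy 1.17.1). The members and lists were chosen with earlier results of these data known. All 9 members are named. From each list up to 3 genes per comparison with the lowest p among those called are named, and for each member the 2 genes with the highest r (that result is not reported here for Ythdf1). Uchl1, Ccnd2, Stra8, Cyp26a1, Stra6, Tox4, Sec24d and Mat1a were named for what they bear on. Alternatives were RLE or library-size scaling, no filter or a mean of at least 50 counts, a single fit of all 9 libraries, the replicate number as a block, DESeq2 1.42.0, stricter thresholds and each library left out.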

Additional observations from a re-analysis of the deposited data

Results flagged for a closer look

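Mettl14 differed between the PL groups by a direct test, with a log2 fold change of 0.40 in RA-deficient against RA-sufficient PL (edgeR adjusted p = 0.0407). It was higher in 3 of 3 RA-deficient libraries than in any RA-sufficient library. Of all genes, 23.6% were called in this comparison, and the libraries of the groups did not overlap for 47.4%. The adjusted p of Mettl14 ranged from 0.0178 to 0.231 over 13 alternative fits, 5 of which called it.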

How the results depend on the processing

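The replicate numbers were not taken to pair libraries, since same-numbered libraries deviated together with r between -0.301 and 0.303 over genes. With the replicate block, the members called numbered 4 in RA-sufficient PL against In/B, 4 in RA-deficient PL against In/B and 0 between the PL groups, against 4, 5 and 1 without it. Over all genes it called 8796, 4797 and 2696, against 9748, 5459 and 3629. Leaving out a library gave 3 to 6, 3 to 5 and 0 to 2 members, beside 8798 to 9999, 3562 to 6840 and 1545 to 6621 of all genes, with the most in the last 2 comparisons without RA-deficient replicate 3. With an absolute log2 fold change above 1 as well, 0 members were called in each, and at an adjusted p of at most 0.01 there were 3, 3 and 0. Scaling by library size alone gave 3 in RA-deficient PL against In/B (Alkbh5 and Mettl14 higher, Wtap lower) and 0 between the PL groups. Between the PL groups no filter gave 0 (3416 of all genes), while DESeq2, a joint fit of all 9 libraries and a minimum mean of 50 counts each gave 2 (5121, 4838 and 3502 of all genes). The cause was not tested.

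Of 351 alternative values of single members, 312 kept direction and call and 7 changed sign, all of differences not called. These were Ythdf1 with scaling by library size alone (-0.16 in RA-deficient PL against In/B and -0.028 between the PL groups), Ythdf2 with that scaling (-0.058 between the PL groups), Ythdf1 without RA-sufficient replicate 1 (0.016 in RA-sufficient PL, where leaving out a library gave -0.19 to 0.016), Fto without In/B replicate 1 (0.0023) or RA-deficient replicate 3 (0.13) in RA-deficient PL against In/B (-0.23 to 0.13 over the libraries left out), and Mettl3 without RA-deficient replicate 2 (-0.031 between the PL groups, with -0.031 to 0.51 over the libraries left out). No ratio or share difference moved by more than the SD between replicates. In this design of 3 against 3, permutation tests could not pass 0.05.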
